A study of Ovis aries with 6 samples.

Results

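SULF2, HGF, FGF18 and FGFBP1 are genes of one extracellular system, in which growth factors that bind heparin are held, released and presented by heparan sulfate chains. They were described here together with every gene on the array whose annotation holds the words fibroblast growth factor (FGF), in cultured sheep cells of 2 kinds. By that wording 20 probes were taken, of 15008 gene probes in all, and they stood for 13 genes. These were the 4 named ones and 9 found by description alone, namely FGF1, FGF2, FGF7, FGF10, FGFR1, FGFR2, FGFR3, FGFRL1 and API5. API5, an inhibitor of apoptosis, entered only because an older name calls it an FGF2-interacting factor. Of the 20 probes, 15 passed the filter on dim probes (3 or more of the 6 arrays well above background), covering 10 genes, and the other 5 were not well above background on any array.

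Skin epidermal stem cells of Ovis aries gave 3 samples and corneal epithelial cells another 3, with no treatment or genetic change named. The series' design calls each sample a cell line, and trypsin-detached adherent cells gave the RNA for 1 single-colour (Cy3) array each. The labels do not say whether lines of one kind came from different animals, so the spread between them may be partly technical. The difference between these 2 groups, corneal minus epidermal, had been seen when the genes were chosen, so their values are a description. Their place in the fit over all probes is given only beside the shares and the settings, and is not a test of them.

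Heparan sulfate is a sulfated sugar chain carried by proteoglycans on cell surfaces and in basement membranes. FGFs, HGF and many other secreted factors bind it, and such a chain takes part in the signalling complex of many FGFs with their receptors. SULF2 is an extracellular sulfatase that removes 6-O-sulfate groups from these chains, which changes which factors they bind. FGFBP1 is a secreted carrier that frees FGFs from the matrix. HGF, FGF7 and FGF10 are classically made by mesenchymal cells and act on neighbouring epithelium, in skin and cornea among other tissues, HGF through the receptor MET and FGF7 and FGF10 through the IIIb form of FGFR2.

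The cell labels were compared with marker genes first. Of 12 listed epithelial markers 7 had a probe, and 3 of these were above background on all epidermal arrays and 2 on all corneal arrays. KRT5 and KRT14, keratins of basal epithelial cells, were above background on 2 epidermal and 0 corneal arrays, and KRT19 and TP63 on 0 arrays. KRT8, a keratin of simple epithelia, and PAX6, a regulator of eye development, were above background on all 6, and the PAX6 probes were called higher in corneal cells (changes of 0.30 and 0.36). All 8 mesenchymal markers with a probe, VIM, COL1A1, COL1A2, COL3A1, DCN, LUM, PDGFRA and FN1, were above background on all 6 arrays. Their signals, each relative to the array's 75th percentile, summed to 1544 to 1836 in the epidermal arrays and 1464 to 1504 in the corneal arrays. COL3A1, one of them, changed by −4.51 and −5.33 (log2) on its 2 probes. Among the rest, FN1 was called higher (0.95 and 0.92), and COL1A1 (−0.55 and −0.24), LUM (−0.40) and PDGFRA (−0.52) lower. DCN was called lower on a probe (−0.44) and not on another (0.07), and COL1A2 and VIM were not called. The epithelial markers summed to 0.553 to 0.607 and 0.618 to 0.685. The 3 immune markers with a probe, CD14, TYROBP and FCGR3A, summed to 27.4 to 28.5 and 18.1 to 18.7. FCGR3A changed by −4.83 and CD14 by −0.31, −0.34 and −0.67 on its probes, while TYROBP was not called (−0.17 and −0.12). Probes differ in how well they bind, so a sum compares arrays within a list, and not one list with another. The part of the cells' makeup in the values below was not tested, and in such bulk samples fewer cells of a type cannot be told apart from less RNA per cell. The share of gene spots well above background ran from 77.5% to 81.6% in the epidermal and from 72.9% to 75.9% in the corneal arrays, no gene spot was saturated, and all 6 arrays shared 1 slide. Epidermal arrays filled positions of its row 1 and corneal arrays positions of its row 2, so the row and the kind of cell cannot be told apart.

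The probes are 60-base oligonucleotides, and which stretch of a transcript they read decides which probes of a gene are separate readings. Those of SULF2, HGF, FGF18, FGF2 and FGF7 and a pair for FGF10 are given 5′ to 3′ from the deposited scanner files. The 2 FGF2 probes are offset by 20 bases and the pair shown for FGF10 by 1 base, with the shared bases in capitals. These pairs therefore read nearly the same stretch of RNA. The 2 FGF7 probes share no stretch of 20 or more bases, nor do the 2 further FGF10 probes share one with each other or with the pair. For SULF2, which the array names from a contig resembling the human protein, the first 30 bases are shown.
SULF2: cagcacttggtatgaggtaacctttgacac
HGF: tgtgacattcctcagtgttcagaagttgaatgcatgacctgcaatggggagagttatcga
FGF18: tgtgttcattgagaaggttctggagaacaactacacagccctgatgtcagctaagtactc
FGF2, probe 1: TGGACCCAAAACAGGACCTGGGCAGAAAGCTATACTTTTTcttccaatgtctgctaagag
FGF2, probe 2: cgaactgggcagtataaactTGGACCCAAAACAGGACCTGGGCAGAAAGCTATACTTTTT
FGF7, probe 1: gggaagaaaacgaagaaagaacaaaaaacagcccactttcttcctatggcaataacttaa
FGF7, probe 2: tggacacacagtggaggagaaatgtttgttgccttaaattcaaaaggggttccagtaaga
FGF10, probe 3: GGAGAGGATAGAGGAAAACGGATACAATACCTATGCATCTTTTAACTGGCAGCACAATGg
FGF10, probe 4: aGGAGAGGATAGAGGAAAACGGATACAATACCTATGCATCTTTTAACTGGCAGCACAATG

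Values below are normalized log2 signals, that is log2 of the background-corrected spot intensity minus the 75th percentile of the same array, so that 0 is a fairly bright probe and each step of 1 is a doubling. Signals of different probes cannot be set against each other, since probes differ in how well they bind. SULF2 had the largest difference of the 15 probes. It was at −6.23, −6.81 and −6.27 in epidermal replicates 1 to 3 and at −0.85, −0.87 and −0.88 in the corneal replicates. The 3 corneal arrays were far above all 3 epidermal arrays and close to one another. Before scaling, the spot read 14.6, 8.5 and 12.6 intensity units in the epidermal and 499, 493 and 483 in the corneal arrays. Epidermal replicate 2, the lowest, was not well above background, and the other 5 arrays were. The group means were −6.44 ± 0.33 and −0.87 ± 0.01 (SD, n = 3), a change of 5.57 ± 0.16 (SE) on the log2 scale, or 47.4-fold. Leaving out 1 array at a time moved the change between 5.38 and 5.67.

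FGF18, an FGF known for its part in cartilage, bone and hair follicle growth, was also higher in the corneal cells. Its signal was −6.72, −6.48 and −6.30 in the epidermal arrays and −5.23, −5.35 and −5.34 in the corneal arrays. All corneal values lay above all epidermal ones, at the dim end of the array: the unscaled intensities were 10.4 to 12.4 units in epidermal and 21.9 to 24.1 units in corneal cells, and 2 of the 3 epidermal arrays were above background. The means were −6.50 ± 0.21 and −5.31 ± 0.07 (SD, n = 3), and the change was 1.20 ± 0.11 (SE), or 2.29-fold.

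FGFBP1, the FGF carrier, lay the other way. It read −4.03, −3.87 and −3.76 in the epidermal arrays and −5.13, −5.22 and −5.01 in the corneal arrays, and was above background on all 6. The groups did not overlap, and the gap between the nearest arrays was 0.98. The means were −3.89 ± 0.13 and −5.12 ± 0.10 (SD, n = 3), a change of −1.23 ± 0.09 (SE), which is 2.35-fold lower in corneal cells.

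HGF, the ligand of MET, had the smallest difference of the 4 named genes and the smallest SE. It was at −3.15, −3.06 and −3.09 in the epidermal arrays and at −3.58, −3.58 and −3.61 in the corneal arrays. No corneal array reached the lowest epidermal one. The means were −3.10 ± 0.04 and −3.59 ± 0.01 (SD, n = 3), a change of −0.49 ± 0.03 (SE), or 1.40-fold lower in corneal cells. Thus 2 of the 4 named genes were higher and 2 were lower in the corneal cells.

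**Figure D1:**
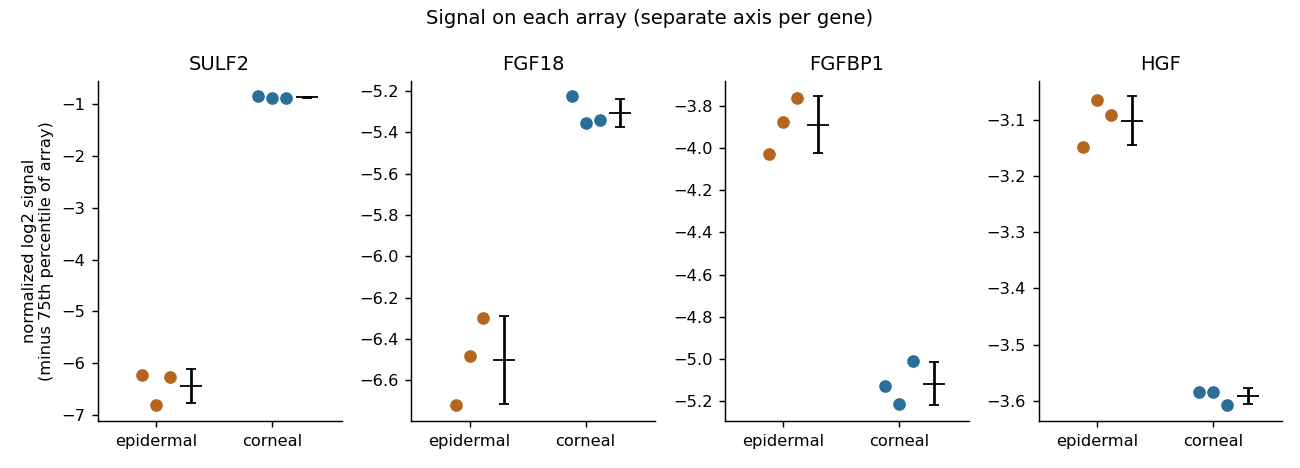
Normalized log2 signal (vertical axis, each gene on its own scale) of SULF2, FGF18, FGFBP1 and HGF on each of the 3 epidermal (brown) and 3 corneal (blue) arrays; the black bar is the mean and the whiskers the SD. In each panel the groups are apart, with SULF2 and FGF18 higher and FGFBP1 and HGF lower in corneal cells.

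Of the other FGF ligands, FGF2 and FGF10 were higher in corneal cells and FGF7 was lower. FGF2 is the basic FGF, a broad growth factor for mesenchymal and epithelial cells. Its probe 1, printed at 5 spots on each array, averaged −0.83, −0.66 and −0.74 in the epidermal and −0.07, −0.41 and −0.35 in the corneal arrays. The groups did not overlap, and corneal replicate 1 stood above the other 2 corneal replicates by more than the SD of 0.015 to 0.049 between the 5 spots of an array. Its probe 2 read −0.76, −0.51 and −0.60 in the epidermal and 0.14, −0.19 and −0.17 in the corneal arrays, with the same array on top. The changes were 0.47 ± 0.10 and 0.55 ± 0.11 (SE). Without corneal replicate 1 they were 0.36 and 0.44.

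FGF7 is keratinocyte growth factor. Its probe 1 gave 1.13, 1.19 and 1.14 in the epidermal and 0.55, 0.42 and 0.39 in the corneal arrays. Probe 2, on another stretch of the transcript, gave 1.93, 2.00 and 1.93 in the epidermal and 1.53, 1.41 and 1.39 in the corneal arrays. On both probes each corneal array was below each epidermal array, with corneal replicate 1 the highest of its group. The changes were −0.70 ± 0.05 and −0.51 ± 0.05 (SE), or 1.62-fold and 1.42-fold lower in corneal cells. A further 2 probes carry the name FGF7 without the descriptive words of the rule, and their changes were −0.47 and −0.56.

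FGF10 binds the same receptor form as FGF7 and differed between the groups in the opposite direction. Its probe 1 read −3.25, −3.00 and −3.10 in the epidermal and −2.55, −2.62 and −2.59 in the corneal arrays. Its probe 2 read −2.07, −1.78 and −1.84 in the epidermal and −1.29, −1.38 and −1.26 in the corneal arrays. On all 4 probes the 3 corneal arrays lay above the 3 epidermal ones. The near-identical probes 3 and 4 were more spread, from −4.32 to −3.82 in epidermal and from −3.81 to −3.26 in corneal cells. The 4 changes were 0.53 ± 0.07, 0.58 ± 0.09, 0.49 ± 0.13 and 0.63 ± 0.11 (SE), which lie within about an SE of one another although 3 separate stretches of RNA were read. FGF1, the acidic FGF, was not well above background on any array, and no fold is given for it.

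The receptors gave smaller differences or no signal. FGFR1, which the array names from a record of its IIIc form, was above background on all arrays. Whether the probe tells the forms of the receptor apart was not tested. It stood at −2.06, −1.79 and −2.01 in the epidermal and −2.08, −2.32 and −2.04 in the corneal arrays. These ranges overlapped, with a change of −0.20 ± 0.10 (SE). FGFRL1, a receptor-like protein without a kinase, was at −1.40, −1.53 and −1.34 in the epidermal and −1.36, −1.21 and −1.20 in the corneal arrays. These overlapped as well, with a change of 0.17 ± 0.07 (SE). FGFR2, named from a record of the IIIb form, the epithelial receptor of FGF7 and FGF10, was not well above background on any array with either of its 2 probes, which are offset by 1 base, and the same held for the 2 probes of FGFR3. API5 ran from 1.37 to 1.49 in the epidermal and from 1.37 to 1.39 in the corneal arrays, with a change of −0.05 ± 0.04 (SE).

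**Figure D2:**
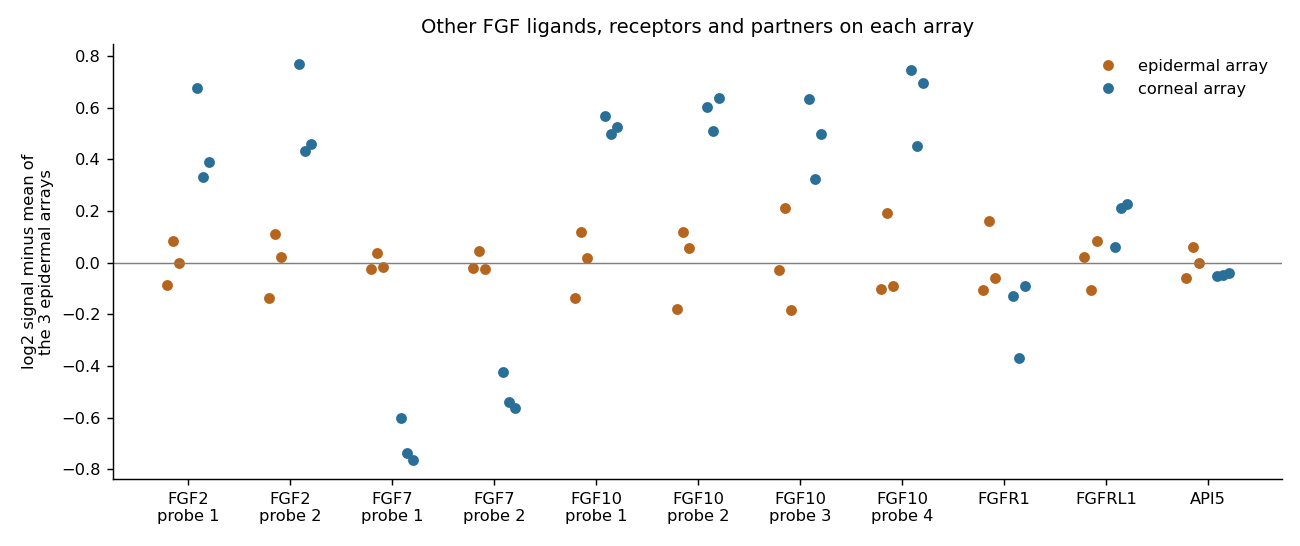
Signal of the other 11 probes that passed the filter on each array, on the log2 scale and minus the mean of the 3 epidermal arrays of that probe; brown points are epidermal and blue points corneal arrays. FGF2 and FGF10 lie above and FGF7 below the epidermal arrays, while FGFR1, FGFRL1 and API5 overlap with them.

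Across the 15 probes that passed the filter, the corneal arrays were all above the epidermal arrays for 8, all below for 4 and overlapping for 3. By gene, SULF2, FGF18, FGF2 and FGF10 were above and HGF, FGF7 and FGFBP1 below. Among all 11740 probes tested, 67.9% had groups that did not overlap (30.1% with corneal arrays all above and 37.8% all below). In the limma fit over all probes, 59.8% were called at an adjusted p under 0.05, 26.4% as higher and 33.4% as lower in corneal cells. The same 12 of the 15 probes were on the called side of that threshold, 8 higher and 4 lower. With normexp background correction 0 of the 12 were (adjusted p = 0.16 to 0.86). That correction called 426 of all probes, in place of 7025. With 7 spots of extreme local background left out of it, all 12 were again (adjusted p up to 0.0036), among 7090 called. FGF10 probe 3 was not on that side without scaling (adjusted p = 0.062), nor without epidermal replicate 1 or 3 or corneal replicate 1 or 3 (adjusted p = 0.0511 to 0.0564). These genes were chosen with this difference known, so nothing is read from their counts beside those shares. Their median change over the 15 probes was 0.47, and 0.06 over the 10 genes with the brightest probe of each, beside −0.05 over all probes. The range was from −1.23 to 5.57. Among the probes tested, 910 were called and differed by at least 1 (log2).

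With another background correction the differences of dim probes had other sizes, and some another direction. With normexp, which models the background and here adds an offset of 50 to every intensity, the change of SULF2 was 2.01, that of FGF18 −0.67 and that of HGF −0.85, and FGF10 turned to −0.25, −0.45 and −0.34 on 3 of its 4 probes and was 0.08 on the other. That setting moved the median of all probes by −0.25. With 7 spots of extreme local background left out of the normexp model, SULF2 was at 2.98, FGF18 at 0.35, FGFBP1 at −0.39 and HGF at −0.22, and all 15 probes had the direction given above. The offset was the same with and without those spots, and an added offset makes the changes of dim probes smaller by construction. The normexp settings differed only in whether those 7 spots entered the model. By what route directions turned and the change of HGF grew in the first setting was not tested. With arrays left unscaled, a setting that moved the median by −0.17, HGF stood at −0.66 and FGF18 at 1.03, and the share of called probes that were higher was 22.5% in place of 44.1%.

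**Figure D3:**
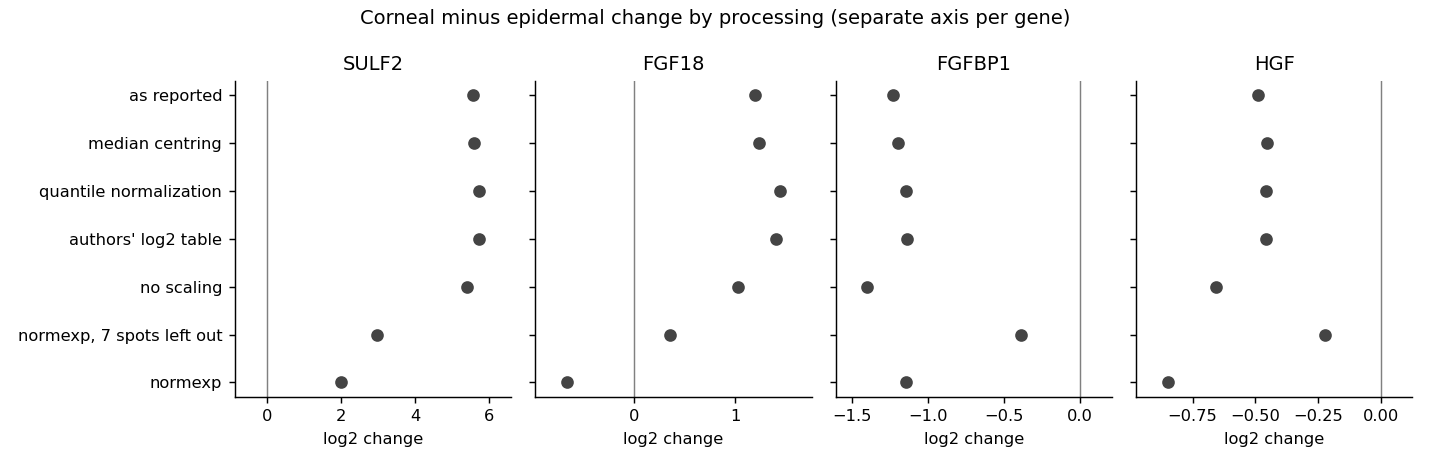
Change of SULF2, FGF18, FGFBP1 and HGF (corneal minus epidermal, log2, each on its own horizontal axis) as reported and under other scalings, the authors' deposited table and 2 normexp background corrections. SULF2, FGFBP1 and HGF keep their side of 0 in each, and FGF18 crosses to −0.67 with normexp.

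The remaining genes of the pathway were counted from lists drawn up with earlier results in view. The 11 lists held 174 gene symbols, of which 120 had no probe so named. Among the 120, CYR61, CTGF and FGFR1OP are older names of CCN1, CCN2 and CEP43, which had probes. In all, 40 genes outside the rule were tested. Of these 12 were higher and 21 lower in corneal cells, beside 26.4% and 33.4% of all probes, and 7 did not pass. With normexp 4 were higher, UGDH, SDC1, CCN1 and CCN2, and 5 lower, EGR1, SPRY1, CXCL12, IGFBP5 and TGFB1. Of all probes 196 were higher and 230 lower in that setting. With normexp run without 7 spots of extreme local background, 14 were higher and 20 lower, beside 3816 and 3274 of all probes. Where a gene had several probes it was counted by the brightest. COL18A1 and CXCL12, counted as lower, passed the filter through their epidermal arrays alone, as did AREG, which was not called.

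Of HGF's activators and receptor, 2 of 4 were higher and 2 lower. MET, the HGF receptor, had means of −2.0 ± 0.04 and −1.46 ± 0.01 (SD, n = 3) in epidermal and corneal arrays, a rise of 0.54 ± 0.03 (SE; limma adjusted p = 5.9e-05). PLAT, tissue plasminogen activator, rose by 0.62 ± 0.03 (adjusted p = 3.01e-05), while PLAU, the urokinase that can also cut HGF precursor, changed by −0.60 ± 0.04 (adjusted p = 5.9e-05). SPINT2, an inhibitor of the proteases that activate HGF, changed by −0.27 ± 0.03 (adjusted p = 0.0007). With normexp the change of MET was 0.10 (adjusted p = 0.83). CEP43, in the list for its older name as an FGFR1 fusion partner, was lower by 0.17 (adjusted p = 0.037), and did not pass when any array other than epidermal replicate 2 was left out (adjusted p = 0.0505 to 0.101), nor with median centring, quantile normalization, no filter or the authors' table (adjusted p = 0.0558 to 0.0972).

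Genes of heparan sulfate itself were few. UGDH, which makes the UDP-glucuronic acid that the chain is built from, rose by 1.32 ± 0.04 (adjusted p = 6.55e-06), from 1.39 ± 0.07 to 2.71 ± 0.02 (SD, n = 3). EXT2, a subunit of the polymerase that extends the chain, rose by 0.24 ± 0.06 (adjusted p = 0.018), and did not pass without corneal replicate 1 (0.20, adjusted p = 0.052) or corneal replicate 3 (0.23, adjusted p = 0.054), nor without scaling (0.07, adjusted p = 0.57). B4GALT7, of the linker that joins the chain to its protein, changed by −0.41 ± 0.07 (adjusted p = 0.0044). SGSH, a lysosomal enzyme that breaks the chain down, changed by −0.32 ± 0.08 (adjusted p = 0.014). SULF1, HPSE, SDC2 and GPC1 had no probe so named and were not analysed here.

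Of 5 proteoglycans that carry such chains, 2 were higher and 2 lower in corneal cells. SDC1, the main syndecan of epithelial surfaces, had means of 0.24 ± 0.17 and 1.03 ± 0.01 (SD, n = 3) in epidermal and corneal arrays, a rise of 0.79 ± 0.09 (SE; adjusted p = 0.00061). HSPG2, perlecan of basement membranes, rose by 0.79 ± 0.14 (adjusted p = 0.0048). SDC4, a syndecan at focal adhesions, changed by −0.18 ± 0.03 (adjusted p = 0.0021). COL18A1, a basement membrane collagen, was above background on all 3 epidermal and 0 corneal arrays, and at least 1.87-fold lower in corneal cells. It passed the filter through its epidermal arrays alone, so its call as lower sets signal against background. The fitted change of COL18A1 did not pass with the normexp correction that left out 7 spots (−0.07, adjusted p = 0.28). TGFBR3, betaglycan, stood at 0.22 ± 0.20 (adjusted p = 0.38) on its brightest probe and at 0.25 ± 0.06 (adjusted p = 0.019) on the other. With normexp, EXT2, HSPG2, SDC4 and TGFB2 (below) turned in direction, to −0.30, −0.26, 0.03 and −0.46.

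Other secreted factors that bind heparin went both ways, with 6 of 14 higher, 6 lower and 2 not passing. Of the higher ones, CCN2 and CCN1, matrix-associated regulators of adhesion and growth, rose by 2.02 ± 0.04 (adjusted p = 7.63e-07) and 1.00 ± 0.05 (adjusted p = 2.6e-05), and BMP4 rose by 1.54 ± 0.03 (adjusted p = 1.01e-06), from −1.53 ± 0.003 to 0.02 ± 0.03 (SD, n = 3). TGFB2, NRG1 and IGFBP3 were the other 3. Of the lower ones, CXCL12, a chemokine for leukocytes and progenitor cells, was above background on all 3 epidermal arrays and on 0 corneal arrays. It was at least 18.3-fold lower in corneal cells, or at least 2.60-fold on its other probe. IGFBP5 changed by −1.86 ± 0.05 (adjusted p = 2.99e-06) and ANGPT1, a ligand of the TIE2 receptor, by −0.95 ± 0.05 (adjusted p = 2.4e-05). VEGFA, the vascular growth factor, changed by −0.31 ± 0.04 (adjusted p = 0.00077) on its brightest probe and by −0.44 and −0.42 on the other 2. PDGFB did not pass (0.76 ± 0.31, adjusted p = 0.082), while another of its probes passed as lower (−0.997, adjusted p = 0.044). With the normexp correction that left out 7 spots the first passed as higher (0.28, adjusted p = 0.027). AREG, an EGF receptor ligand above background on all 3 epidermal and 0 corneal arrays, did not pass either. Its change passed without scaling, with the replicate number as a block, without epidermal replicate 1 and without corneal replicate 2. Since AREG passed the filter through its epidermal arrays alone, these calls set signal against background. HBEGF had no probe so named.

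Downstream, the adaptor GRB2, which links receptors to RAS, changed by −0.24 ± 0.03 (adjusted p = 0.0017), and PIK3R1, a subunit of PI3-kinase, by −0.14 ± 0.04 (adjusted p = 0.020). PIK3R1 did not pass without epidermal replicate 3 (adjusted p = 0.061) or corneal replicate 2 (adjusted p = 0.067), nor with median centring (adjusted p = 0.051). The other 4 of 6 signalling genes, AKT1, NRAS, HRAS and SHC1, did not pass. Among these, HRAS and SHC1 passed without epidermal replicate 2 (0.15 and 0.26, adjusted p = 0.039 and 0.016). HRAS, at 0.13 and an adjusted p of 0.053, also passed with median centring (adjusted p = 0.022), quantile normalization (0.045) and the authors' table (0.037).

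All 6 measured targets and feedback genes of the MAPK cascade were called lower in corneal cells, beside 33.4% of all probes. FGF receptors and MET activate this cascade, and its activity was not tested here. Only these 6 of 21 listed genes had a probe so named, and their median change was −1.09 beside −0.05 over all probes. The immediate early gene EGR1 changed by −1.96 ± 0.07 (adjusted p = 9.45e-06), although its 6 probes ranged from −1.96 to −0.21. The feedback inhibitors SPRY4, SPRY1 and SPRY2 changed by −1.50 ± 0.20 (adjusted p = 0.0013), −1.18 ± 0.03 (adjusted p = 1.59e-06) and −0.39 ± 0.04 (adjusted p = 0.00073), SPRY4 with 1 corneal array above background. SPRY4 was at −0.17 (adjusted p = 0.041) with the normexp correction that left out 7 spots. FOS and MYC changed by −0.99 ± 0.04 and −0.52 ± 0.05 (adjusted p = 1.5e-05 and 0.00029). Dimmer FOS probes changed by −0.52, −0.83 and −0.35, the last not called. Those at −0.83 and −0.35 were above background on 0 corneal arrays. With normexp all 6 were still lower in value, and FOS, MYC, SPRY2 and SPRY4 no longer passed. DUSP6 had no probe so named.

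**Figure D4:**
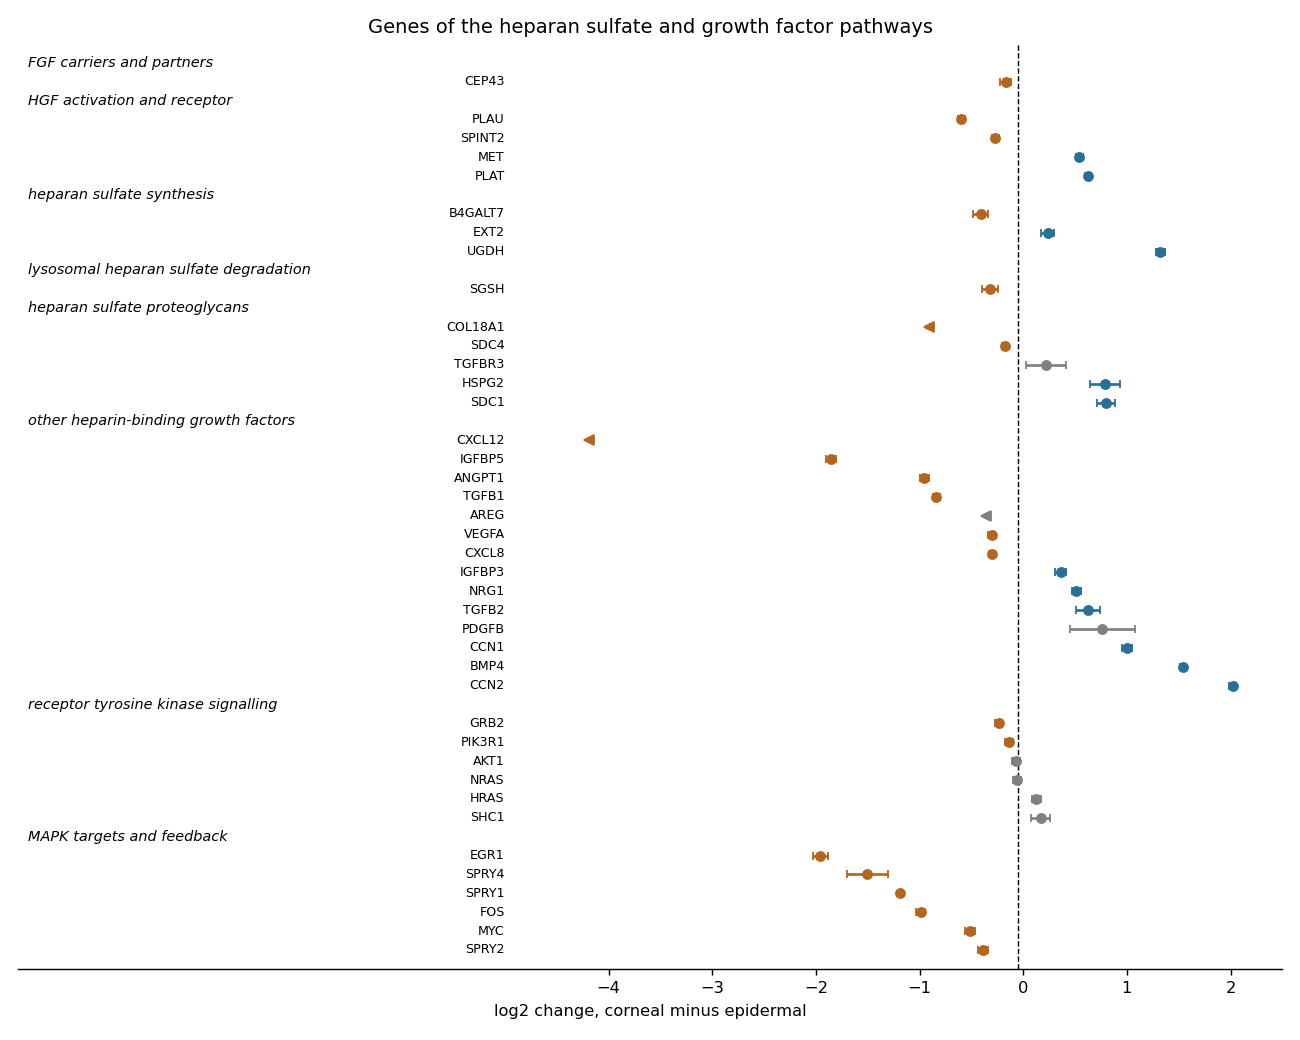
Corneal minus epidermal log2 change of the 40 pathway genes tested, grouped by list, with SE bars; blue genes were called higher, brown lower and grey neither. Triangles mark COL18A1, CXCL12 and AREG, not well above background on any corneal array, at their bound, and the dashed line is the median of −0.05 over all probes.

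For each of the 4 named genes, the tested probes with the most similar pattern over the 6 arrays were found among 950 probes with a symbol, by root mean square distance of values centred on each probe's own mean. ABCB1, a drug efflux transporter, was closest to SULF2 at 0.19, followed by the cyclooxygenase PTGS1 at 0.23 and the receptor GLP1R at 0.68. For FGF18 they were the transcription factor TFAP2A at 0.068, cyclin CCNA2 at 0.11 and UGDH at 0.12. For FGFBP1 they were a probe of EGR1 at 0.072, the endothelin receptor EDNRA at 0.085 and SPRY1 at 0.10. For HGF they were CIB1 at 0.019, PDGFRA at 0.019 and CDKN1A at 0.021. Such a distance over 6 arrays in 2 groups takes in the difference between the groups as well as the spread within them.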

How the data were processed

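Total RNA was labelled with Cy3 and hybridised to a sheep array, per the labels' protocols, and the submitters' processing notes name Agilent Feature Extraction 10.7 for reading the spots. The deposited scanner values are linear intensities, background-subtracted per the file headers. A second deposited table holds the authors' log2 values and served as an alternative. Its medians per array were 7.23, and each column correlated with its own array's log2 signal at 0.999 or 1.00 after rounding. Its scaling method is not stated in the labels. Its genes were not centred, and a direction does not arise with 1 colour.

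For each array the 75th percentile was subtracted from the log2 processed signals, and spots of one probe were averaged, with control spots and outlier-flagged spots left out. The filter (3 or more of the 6 arrays well above background, of either group) kept 11740 of 15008 probes. Differences were fitted in R 4.3.3 by limma 3.58.1 (moderated linear models with eBayes, two-sided, Benjamini-Hochberg over all kept probes, threshold 0.05), a fit tested on simulated data. Where no array of a group was well above background, a fold is a bound. It sets the bright group's mean against the dim group's, each dim array entering at its own signal or at its lowest signal well above background, whichever was higher. Probe names came from the array's annotation and a table of sheep RefSeq genes (ARS-UI_Ramb_v3.0), used for names alone, and 13641 probes stayed unnamed. No genome coordinates were used here.

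The genes and lists were chosen with earlier results of these data known. Named genes were all genes of the rule, up to 3 called genes per list with the largest change each way, a set of FGF, HGF and heparan sulfate genes, and the 3 nearest patterns of each of the 4 named genes. FOS, MYC, TGFB1, TGFB2, NRG1, IGFBP3, PDGFB, AREG and TGFBR3, and the signalling genes that did not pass, lie outside that rule and were named after their values were seen. Markers of immune, endothelial and melanocyte cells served only to check the labels. Of these, 3 of 5, 5 of 5 and 1 of 4 had a probe, with 3, 2 and 0 above background on all epidermal and 2, 0 and 0 on all corneal arrays. A gene of the signalling list is not reported here. The number of arrays limits the precision.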

Additional observations from a re-analysis of the deposited data

How the results depend on the processing

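Of all probes, 3101 were higher and 3924 lower in corneal cells, and of 40 pathway genes 12 and 21. With normexp the numbers were 196 and 230, and 4 and 5. With normexp run without 7 spots of extreme local background they were 3816 and 3274, and 14 and 20. Without scaling 1535 probes were higher. The change of SULF2 was 2.01 with normexp and 2.98 with normexp run after 7 spots with extreme local background had been left out. For FGF18 it was 1.44 with quantile normalization, 1.03 without scaling, −0.67 with normexp, 0.35 with normexp run without those spots and 1.40 in the authors' table. FGFBP1 stood at −1.40 without scaling and −0.39 with normexp run without those spots. HGF stood at −0.45 with median centring, −0.46 with quantile normalization and in the authors' table, −0.66 without scaling, −0.85 with normexp and −0.22 with normexp run without those spots. With normexp FGF10 turned to −0.25, −0.45 and −0.34 on 3 probes, HSPG2 to −0.26, SDC4 to 0.027, EXT2 to −0.30 and TGFB2 to −0.46. The normexp settings differed only in whether those spots entered. Apart from the offset's shrinking of dim probes, how the values moved was not tested. Leaving out 1 array at a time moved FGF18 between 1.09 and 1.30, FGFBP1 between −1.30 and −1.17 and HGF between −0.51 and −0.47.

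Deviations from the group means of arrays with the same replicate number correlated at 0.02, −0.03 and 0.04 between the groups. For unequal numbers the correlations ran from −0.05 to 0.03. With 3 arrays per group, such values cannot decide whether the numbers pair the samples. With the replicate number as a block, 2754 probes were higher and 3525 lower, and of the 33 called pathway genes SGSH no longer passed (adjusted p = 0.053), nor did FGF10 probe 3 (0.057). Low signal limits SULF2 and FGF18 in epidermal cells, where 1 of 3 arrays was not well above background.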
